A study of Homo sapiens with 6 samples.

Results

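The spindle assembly checkpoint delays anaphase until every chromosome is attached to the mitotic spindle. The genes described here are the 10 with the symbols MAD2L1, MAD1L1, BUB1, BUB1B, BUB3, TTK, MAD2L2, MAD2L1BP, TRIP13 and CDC20, chosen by name from the 33392 genes of the deposited expression table. Each of the 10 symbols had 1 row, and all 10 genes were tested. RNA was sequenced from 6 libraries labelled HK-2, the name of an immortalised human epithelial line of proximal tubule origin, an origin that the kidney markers below do not bear out. In 3 libraries the cells had received an siRNA against the kinase DYRK2 (siDYRK2), and in the other 3 a scramble siRNA. Cells of both groups were under TGF-β1, a cytokine that drives fibrosis, and all libraries carry a 48 h label. Cells without the cytokine are not among these libraries, and the labels give neither the dose of the cytokine nor the siRNA sequences. Nothing in the labels says that replicates came from separate cultures, so the spread behind every p-value may be technical.

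At an unattached kinetochore the kinase TTK (also called MPS1) phosphorylates the scaffold KNL1, which then recruits BUB1 and BUB3. MAD1L1 holds a template of MAD2L1 there and converts further MAD2L1 into its closed, active shape. The product is the mitotic checkpoint complex of MAD2L1, BUB1B (BUBR1), BUB3 and CDC20, which blocks the anaphase-promoting complex (APC/C), the ubiquitin ligase that starts anaphase. TRIP13, an ATPase, and its adaptor MAD2L1BP (p31comet) take the complex apart by opening MAD2L1. MAD2L2 (REV7) is a paralog of MAD2L1 that works mainly in DNA repair. Most of these transcripts are made late in the cell cycle, so in bulk RNA a change in the share of cells near mitosis and a change of RNA per cell cannot be told apart.

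DYRK2, the siRNA target, had 1.45, 1.54 and 1.49 FPKM in the siDYRK2 libraries, against 5.84, 6.06 and 5.96 FPKM in the scramble libraries. FPKM is a fragment count scaled to transcript length and to the mapped fragments of the library, and its values summed to between 252318 and 255378 per library. The number of fragments behind a value is unknown. All 6 epithelial markers were present and did not move together. KRT7 rose (542 FPKM with siDYRK2 and 382 FPKM with scramble siRNA on average), while CDH1 (1.17 FPKM with siDYRK2 and 2.97 FPKM with scramble siRNA), KRT18 and KRT19 fell, and KRT8 and EPCAM did not pass the test. Their sum, 768 to 808 FPKM with siDYRK2 and 718 to 734 FPKM with scramble siRNA, is carried by KRT7. In contrast, the 9 markers of the kidney tubule with a row summed to only 0.58 to 0.63 FPKM with siDYRK2 and to 0.72 to 0.89 FPKM with scramble siRNA, with PAX8, a factor of kidney epithelium, at 0.0867 FPKM with siDYRK2 and 0.183 FPKM with scramble siRNA on average. The markers therefore leave the labelled kidney identity in doubt. NKX2-1, a factor of lung and thyroid epithelium, averaged 23.4 ± 0.473 FPKM with siDYRK2 and 26.5 ± 0.895 FPKM with scramble siRNA (SD, n = 3 each). The other lung markers with a row had smaller FPKM. SFTPB averaged 4.03 FPKM with siDYRK2 and 3.65 FPKM with scramble siRNA, NAPSA 1.24 FPKM with siDYRK2 and 1.98 FPKM with scramble siRNA, and SFTPC and SFTPA2 reached at most 0.06 FPKM in any library. Fibroblast markers summed to 0.62 to 0.75 FPKM with siDYRK2 and to 0.35 to 0.42 FPKM with scramble siRNA, and endothelial markers to at most 0.07 FPKM in any library. Of 2 immune markers with a row, CD14 averaged 0.667 FPKM with siDYRK2 and 0.267 FPKM with scramble siRNA, and CD68, a lysosomal protein also made outside the immune system, 16.7 ± 0.356 and 13.3 ± 3.61 FPKM (SD, n = 3 each; with siDYRK2 and with scramble siRNA). Scramble replicate 3 stood apart in CD68, at 17.49 FPKM, against 11.07 and 11.41 FPKM in the other scramble libraries. No marker with a row was at 0 in all libraries. Their part in the results below was not tested.

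Checkpoint genes did not move as one group after DYRK2 silencing. Of the 10 genes, 6 rose (TTK, TRIP13, BUB1B, BUB1, CDC20 and BUB3), 1 fell (MAD2L1) and 3 did not pass the test (MAD1L1, MAD2L1BP and MAD2L2). Of all 15121 genes tested, 20.4% were called higher and 17.9% lower by limma at a Benjamini-Hochberg adjusted p under 0.05, or 38.3% in either direction. Log2 fold changes are differences of log2(FPKM + 0.5), positive where siDYRK2 is higher, and their median was 0.24 for the 10 genes and 0.0086 for all genes tested. In size regardless of direction the medians were 0.29 and 0.17. FPKM of the siDYRK2 libraries lay above all scramble libraries for 6 of the genes and below all of them for 3, against 27.4% and 24.3% of all genes tested, or 51.7% without overlap in either direction. Scramble replicate 3 was the lowest of its group for 8 of the 10 genes. Without it 3 genes were called higher (TTK, TRIP13 and BUB3) and MAD2L1 lower, and the same calls were made without scramble replicate 2 or without siDYRK2 replicate 3.

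**Figure D1:**
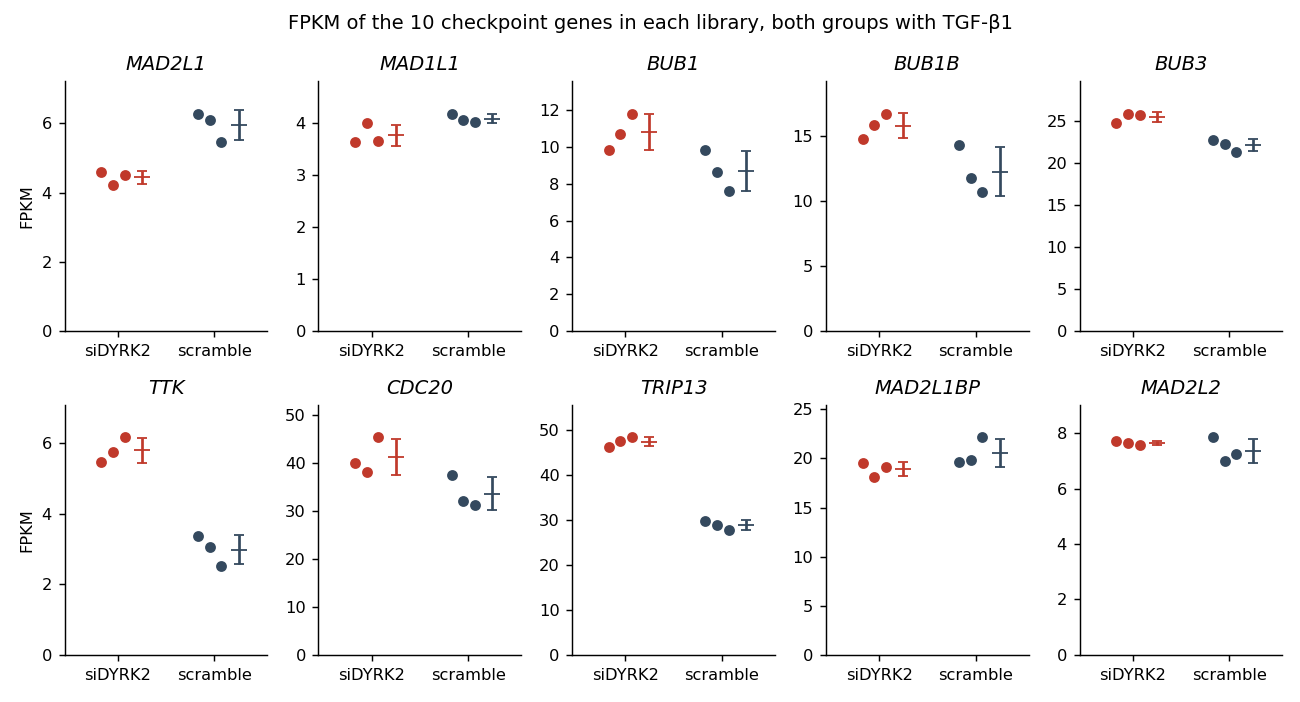
FPKM of each checkpoint gene (y axis, from 0) in the 3 siDYRK2 libraries (red, left) and the 3 scramble libraries (dark, right), with the mean and SD beside the points. TTK and TRIP13 show the widest gaps between groups, MAD2L1 is lower in all siDYRK2 libraries, and only the MAD2L2 values overlap.

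**Figure D2:**
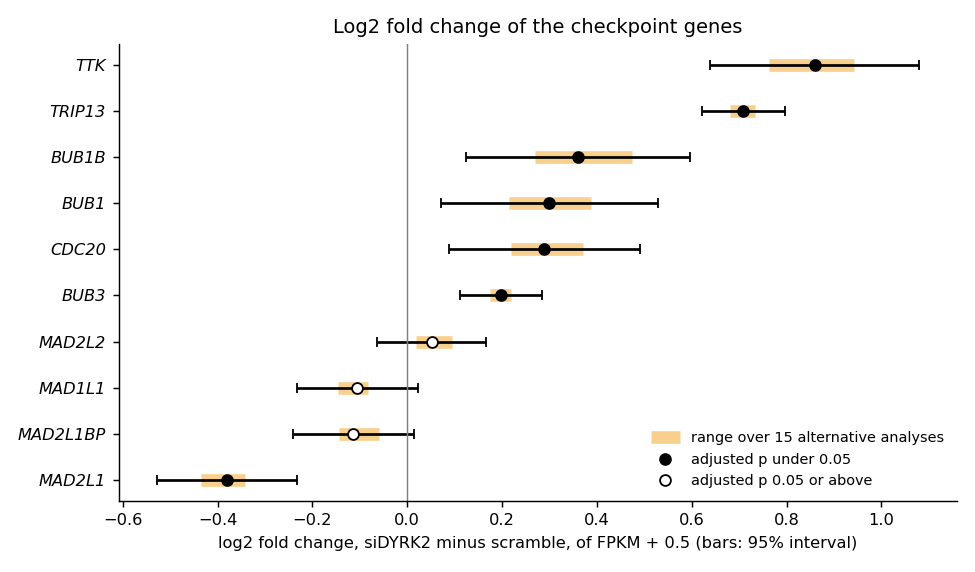
Log2 fold change (siDYRK2 minus scramble, FPKM + 0.5) of each gene with its 95% interval (black bars) and the range of the estimate over the 15 alternative analyses (orange). Filled points passed an adjusted p of 0.05; the values run from −0.38 for MAD2L1 to 0.86 for TTK.

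The checkpoint kinases were higher in siDYRK2 cells. TTK (ENSG00000112742; GRCh38 chr6:80003887-80042527, plus strand), the kinase that starts the signal, had 5.47, 5.75 and 6.16 FPKM in siDYRK2 libraries, against 3.36, 3.06 and 2.53 FPKM in scramble libraries. Every siDYRK2 library exceeded every scramble library, and the ratio of means was 1.94. Its log2 fold change of 0.86 (SE 0.0940, adjusted p = 4.9e-04) was the largest of the 10 genes and ranked 331 by size among all genes tested. By FPKM, TTK was also the least abundant of the 10 transcripts in scramble libraries, and stood above MAD2L1 and MAD1L1 in siDYRK2 libraries.

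BUB1 (ENSG00000169679; GRCh38 chr2:110637698-110678114, minus strand) is the kinase that docks on KNL1 and also marks centromeric histone H2A. It had 9.85, 10.7 and 11.8 FPKM with siDYRK2, against 9.82, 8.64 and 7.62 FPKM with scramble siRNA. The groups were separated by only the gap between siDYRK2 replicate 1 and scramble replicate 1. The log2 fold change was 0.30 (SE 0.0973, adjusted p = 0.046), and the call was kept in 6 of 15 alternative analyses, with adjusted p from 0.018 to 0.13. It was lost without scramble replicate 2 (adjusted p = 0.10), scramble replicate 3 (0.11), siDYRK2 replicate 2 (0.10) or siDYRK2 replicate 3 (0.13).

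The template pair of the checkpoint, MAD1L1 and MAD2L1, was not among the genes that rose. MAD1L1 (ENSG00000002822; GRCh38 chr7:1815793-2233243, minus strand), the kinetochore anchor of MAD2L1, had 3.62, 3.99 and 3.65 FPKM in siDYRK2 libraries, against 4.17, 4.04 and 4.01 FPKM in scramble libraries. All 3 siDYRK2 values were below the scramble values, by as little as the 0.02 FPKM between 3.99 and 4.01. The difference did not pass the test (log2 fold change −0.11, 95% interval −0.23 to 0.022, adjusted p = 0.17).

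MAD2L1 (ENSG00000164109; GRCh38 chr4:120055608-120067074, minus strand), the core inhibitor that binds CDC20, had 4.59, 4.23 and 4.52 FPKM in siDYRK2 libraries, against 6.28, 6.10 and 5.46 FPKM in scramble libraries. Its mean fell to 4.45 ± 0.191 FPKM in siDYRK2 cells, against 5.95 ± 0.431 FPKM in scramble cells (SD, n = 3 each), or 74.8% of it. Its log2 fold change was −0.38 (SE 0.0630, adjusted p = 0.0031). The call held in all 15 alternative analyses, with log2 fold changes from −0.44 to −0.34. In both groups MAD2L1 was among the 3 least abundant of the 10 transcripts by FPKM.

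MAD2L1 was also the 1 gene of the 10 with the 7-base word ATCTATA in its 3′ untranslated region, a word held by 10.1% of all 11597 genes searched. An earlier scan of these same data had linked this word to lower expression in siDYRK2 cells, so what follows describes the gene and is no independent evidence. In GENCODE v29 the principal MAD2L1 transcript has a 3′ untranslated region of 4510 bases with 3 copies of ATCTATA, and the first is the 8-base word CATCTATA. None of the other 9 principal transcripts contains ATCTATA, but 7 of them have a 3′ untranslated region of only 74 to 419 bases, in which few words can occur. BUB3 has the related word CATCTAT in its 3′ untranslated region of 6632 bases, BUB1 has CATCTAT in its coding region, and TTK has only the inner ATCTAT in its coding region. The sites of the 7-base and 8-base words are printed as 30 bases each, 5′ to 3′ on the gene's strand, with the word in capitals. They show where the words lie.
MAD2L1, 62 bases after the stop codon, chr4:120060038-120060067: tgaaatcaagtCATCTATAgttgatatgtt
MAD2L1, 443 bases after the stop codon, chr4:120059657-120059686: agtaactcataATCTATAaacaatgaaata
MAD2L1, 4273 bases after the stop codon, chr4:120055827-120055856: tcctatgcctaATCTATAttgtctacagag
BUB3, 775 bases after the stop codon, chr10:123164599-123164628: atttagacaggCATCTATttggacctgttt
BUB1, coding region, chr2:110641721-110641750: aagactaaagcCATCTATgcagcacatgtt

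Among 11597 tested genes with a searchable 3′ untranslated region, 29 (0.25%) had at least 3 copies of ATCTATA, MAD2L1 among them. Of these 29 genes, 55.2% were called lower and 3.45% higher, with a median log2 fold change of −0.27. Of the 10424 genes without a copy, 17.2% were called lower and 25.9% higher, with a median of 0.038. Genes with 1 copy (29.7% lower) and with 2 copies (39.3% lower) lay in between. Since the word came from an earlier scan of these same data, this order is no independent evidence. The length of the 3′ untranslated region moved with the number of copies, at a median of 7115 bases for 3 or more copies and of 980 bases for none, and its part was not tested. Which 3′ ends the cells used is not measured by FPKM per gene, so it is unknown whether the third MAD2L1 site was present in the RNA. The siRNA sequence was not used here, so no word is tied to it.

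**Figure D3:**
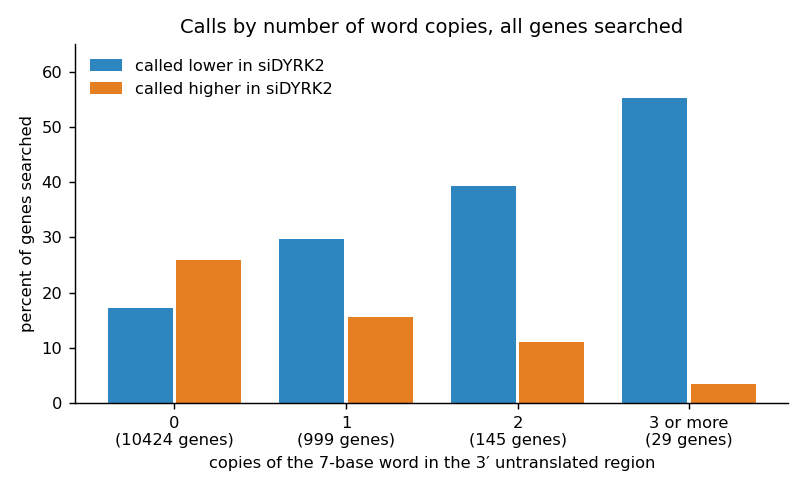
Percent of genes called lower (blue) and higher (orange) in siDYRK2 against scramble libraries (y axis) by the number of copies of the 7-base word in the 3′ untranslated region (x axis, number of genes in brackets). The share called lower is 17.2% with no copy and 55.2% with 3 or more, the class that holds MAD2L1. The word came from an earlier scan of these same data, so the figure is no independent evidence. The median 3′ untranslated region is 980 bases with no copy and 7115 bases with 3 or more.

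The other subunits of the mitotic checkpoint complex rose. BUB3 (ENSG00000154473; GRCh38 chr10:123154277-123170467, plus strand), which carries BUB1 and BUB1B to kinetochores, had 24.7, 25.8 and 25.7 FPKM in siDYRK2 libraries, against 22.7, 22.2 and 21.3 FPKM in scramble libraries. The step was small and the libraries close together, with a log2 fold change of 0.20 (SE 0.0369, adjusted p = 0.0050), and the call held in all 15 alternative analyses.

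BUB1B (ENSG00000156970; GRCh38 chr15:40161023-40221136, plus strand), which encodes the APC/C inhibitor BUBR1, had 14.8, 15.9 and 16.8 FPKM with siDYRK2, against 14.4, 11.8 and 10.7 FPKM with scramble siRNA. CDC20 (ENSG00000117399; GRCh38 chr1:43358955-43363203, plus strand), the APC/C activator that the checkpoint captures, had 40.00, 38.05 and 45.27 FPKM with siDYRK2, against 37.53, 31.99 and 31.21 FPKM with scramble siRNA. For both genes the highest scramble value, in replicate 1, came close to the lowest siDYRK2 value. The log2 fold change was 0.36 for BUB1B (SE 0.101, adjusted p = 0.027) and 0.29 for CDC20 (SE 0.0859, adjusted p = 0.034). BUB1B kept its call in 9 and CDC20 in 8 of 15 alternative analyses, with adjusted p from 0.0036 to 0.083 and from 0.011 to 0.10. Leaving out scramble replicate 2, scramble replicate 3 or siDYRK2 replicate 3 ended both calls, with adjusted p of 0.080, 0.061 and 0.083 for BUB1B and of 0.10, 0.094 and 0.090 for CDC20. The BUB1B call was also lost without siDYRK2 replicate 2 (0.072) and the CDC20 call without siDYRK2 replicate 1 (0.067).

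The balance of RNA among partners follows from the values above and is given as a description. The ratio of MAD2L1 to CDC20 FPKM in the same library was 0.115, 0.111 and 0.0999 with siDYRK2, against 0.167, 0.191 and 0.175 with scramble siRNA. The MAD2L1 to BUB1B ratio averaged 0.282 ± 0.0241 with siDYRK2 and 0.488 ± 0.0439 with scramble siRNA (SD, n = 3 each), and the MAD2L1 to BUB3 ratio 0.175 ± 0.0110 and 0.269 ± 0.0111 (SD, n = 3 each). The MAD2L1 to MAD1L1 ratio averaged 1.19 ± 0.112 with siDYRK2 and 1.46 ± 0.0845 with scramble siRNA (SD, n = 3 each). Since MAD2L1 was lower and CDC20, BUB1B and BUB3 were higher in every siDYRK2 library, the first 3 ratios had to separate the groups, and no test is given for them. Their log2 differences were −0.71, −0.79 and −0.62. For MAD1L1, whose values were lower too, the log2 difference was −0.30, without overlap (exact two-sided permutation p = 0.1, the smallest that 3 against 3 libraries allow). Within the summed FPKM of CDC20, BUB3, BUB1B and MAD2L1, MAD2L1 made up 5.13% ± 0.288 with siDYRK2 and 8.06% ± 0.361 with scramble siRNA (SD, n = 3 each). CDC20 made up 47.3% ± 1.92 with siDYRK2 and 45.4% ± 1.01 with scramble siRNA. These are shares of FPKM, which depend on the transcript lengths assumed, and the 3′ ends used are unknown. Protein was not measured.

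**Figure D4:**
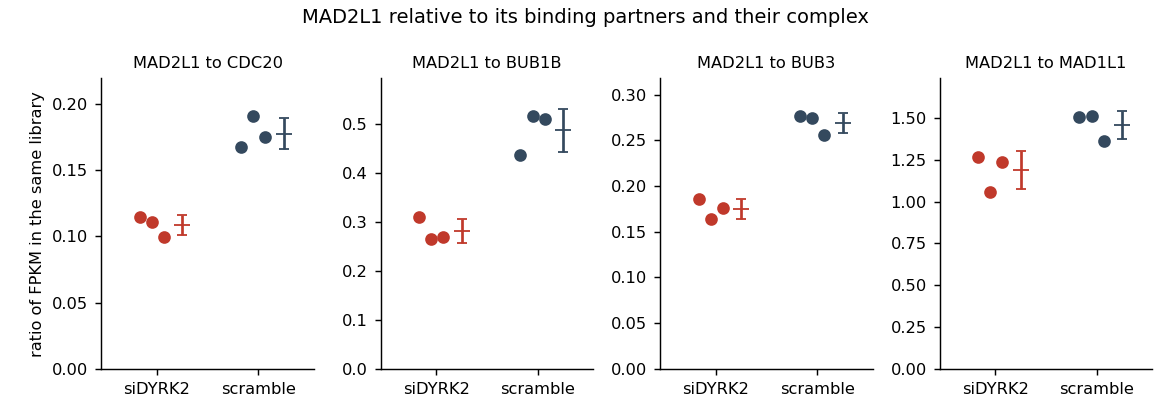
Ratio of MAD2L1 FPKM to that of CDC20, BUB1B, BUB3 and MAD1L1 in the same library (y axes, from 0), for siDYRK2 (red, left) and scramble (dark, right), with mean and SD. In all 4 panels every siDYRK2 library lies below every scramble library, which for CDC20, BUB1B and BUB3 follows from the values of the single genes.

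The genes that take the complex apart differed from each other. TRIP13 (ENSG00000071539; GRCh38 chr5:892643-919357, plus strand), the ATPase, had 46.33, 47.65 and 48.39 FPKM in siDYRK2 libraries, against 29.89, 28.97 and 27.69 FPKM in scramble libraries. Its mean rose to 47.5 ± 1.04 FPKM in siDYRK2 cells, against 28.8 ± 1.10 FPKM in scramble cells (SD, n = 3 each), a ratio of 1.65 (log2 fold change 0.71, SE 0.0374, adjusted p = 2.2e-05). By FPKM, TRIP13 was the most abundant of the 10 transcripts in siDYRK2 libraries, above CDC20, whereas CDC20 was above TRIP13 in scramble libraries. In all 15 alternative analyses its log2 fold change lay between 0.68 and 0.73 and it was called higher. BRD9 overlaps TRIP13 on the opposite strand, and strand use in the counting is not given. BRD9 had 10.7 to 11.6 FPKM with siDYRK2 and 9.50 to 9.72 FPKM with scramble siRNA (log2 fold change 0.20, adjusted p = 0.0072).

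MAD2L1BP (ENSG00000124688; GRCh38 chr6:43629540-43640952, plus strand), the adaptor through which TRIP13 grips MAD2L1, had 19.6, 18.1 and 19.1 FPKM with siDYRK2, against 19.7, 19.8 and 22.1 FPKM with scramble siRNA. The siDYRK2 values were all below the scramble values, by 0.13 FPKM at the nearest, and the difference did not pass the test (log2 fold change −0.11, 95% interval −0.24 to 0.014, adjusted p = 0.14). It was the gene for which scramble replicate 3 was the highest library of its group. The MAD2L1 to TRIP13 ratio averaged 0.0938 ± 0.00516 with siDYRK2 and 0.206 ± 0.00760 with scramble siRNA (SD, n = 3 each), a separation that the values of the 2 genes already fix.

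MAD2L2 (ENSG00000116670; GRCh38 chr1:11674480-11691650, minus strand), the paralog in translesion synthesis and the shieldin complex, had 7.71, 7.66 and 7.58 FPKM with siDYRK2, against 7.85, 7.01 and 7.26 FPKM with scramble siRNA. It was the gene whose groups overlapped, and its difference did not pass the test (log2 fold change 0.051, 95% interval −0.065 to 0.17, adjusted p = 0.45). Of its 10 listed repair partners 9 were tested, and 2 were called higher and 0 lower. The share called higher was near the 20.4% of all genes tested. POLD3, a subunit of polymerases delta and zeta, rose to 9.37 ± 0.551 FPKM in siDYRK2 cells, against 7.11 ± 0.243 FPKM in scramble cells (SD, n = 3 each; adjusted p = 0.0015), and RIF1, which acts upstream of shieldin, rose by 0.20 on the log2 scale (adjusted p = 0.036). The RIF1 call was lost when any library but siDYRK2 replicate 1 was left out, leaving 1 partner called higher. The other 7 did not pass, among them SHLD2, a shieldin subunit (log2 fold change −0.080, adjusted p = 0.24).

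In FPKM, which is scaled by length, the 10 genes of siDYRK2 libraries ran from TRIP13 (47.5) through CDC20, BUB3, MAD2L1BP, BUB1B, BUB1, MAD2L2, TTK and MAD2L1 to MAD1L1 (3.75), and the ranges of neighbours in this order did not overlap. Scramble libraries ran from CDC20 (33.6) through TRIP13, BUB3, MAD2L1BP, BUB1B, BUB1, MAD2L2, MAD2L1 and MAD1L1 to TTK (2.98). There the ranges of BUB3 and MAD2L1BP overlapped, as did those of BUB1 and MAD2L2.

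Many genes of late cell cycle carry a promoter element called the cell cycle genes homology region, bound by the MuvB complex, whose core is often TTTGAA or TTCGAA. RefSeq windows (GRCh38.p14) spanning 250 bases before to 50 bases after the start were matched by symbol for 8 of the 10 genes, not for TTK and BUB3. On the coding strand, one of the words was in the windows of CDC20, BUB1B and MAD2L1 (TTTGAA) and of BUB1 and TRIP13 (TTCGAA), and in 9.70% of all 35116 windows. TTCGAA reads the same on both strands, and neither word contains the other. Counting TTTGAA on the other strand too, MAD2L1BP also had a match, against 16.4% of all windows. It lay in the downstream window (chr6:43635590-43635889), not in the window at the annotated gene start (chr6:43629290-43629589). MAD2L1BP and MAD2L2 each had more than 1 window, whereas the shares are per window. MAD1L1 and MAD2L2 had none. The matches are printed as 30 bases of the coding strand, with the word in capitals. Positions are those of the first base of the word, counted with the RefSeq start as 1. RefSeq starts need not be the annotated gene starts given above. The windows of TRIP13 (chr5:892634-892933) and MAD2L1 (chr4:120066799-120067098) lie almost wholly inside the annotated genes, so their words are not near those gene starts. The printed matches show that MAD2L1, which fell, and 4 of the genes that rose each hold one of the words. A match is a description and not a binding site.
CDC20, word at −65, chr1:43358904-43358933, plus strand: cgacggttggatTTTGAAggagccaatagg
BUB1B, word at −23, chr15:40161034-40161063, plus strand: gggaccgttaaaTTTGAAacttggcggcta
BUB1, word at 2, chr2:110678045-110678074, minus strand: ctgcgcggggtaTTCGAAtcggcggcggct
TRIP13, word at 4, chr5:892875-892904, plus strand: tcgcgcggcagaTTCGAAgctagggcgggg
MAD2L1, word at 25, chr4:120066807-120066836, minus strand: tgcgtcgttactTTTGAAacgcttggcggg

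Genes that build or switch on the checkpoint platform at kinetochores were mostly higher. Of 21 tested genes of this list 18 rose, 1 fell and 2 did not pass, with a median log2 fold change of 0.43, against 0.0086 for all genes tested. Among all genes tested, 20.4% were called higher and 17.9% lower. ZWINT, which links KNL1 to the ROD-Zwilch-ZW10 complex, rose to 26.4 ± 1.48 FPKM in siDYRK2 cells, against 15.03 ± 0.197 FPKM in scramble cells (SD, n = 3 each; adjusted p = 2.8e-05). Within that complex, which brings MAD1L1 and MAD2L1 to kinetochores, KNTC1 (ROD) rose by 0.59 and ZWILCH by 0.46 on the log2 scale (adjusted p = 5.7e-05 and 1.0e-04). PMF1, a subunit of the MIS12 complex, fell to 13.3 ± 1.12 FPKM in siDYRK2 cells, against 17.7 ± 1.13 FPKM in scramble cells (SD, n = 3 each; adjusted p = 0.0037).

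Genes of the APC/C went both ways. Of 18 tested subunits, coactivators and partners, 6 rose, 2 fell and 10 did not pass, and their median log2 fold change was 0.049. The background is 20.4% higher and 17.9% lower among all genes tested. FBXO5 (EMI1), an inhibitor of the APC/C, rose with the smallest adjusted p of the list, to 6.44 ± 0.168 FPKM in siDYRK2 cells, against 4.51 ± 0.115 FPKM in scramble cells (SD, n = 3 each; adjusted p = 2.7e-04). CDC23 rose by 0.27 on the log2 scale (adjusted p = 0.0067), while ANAPC16 (−0.24, adjusted p = 0.0086) and the catalytic-core subunit ANAPC2 (−0.29, adjusted p = 0.018) fell. The ANAPC2 call was kept in 12 of 15 alternative analyses, with adjusted p up to 0.060. Without scramble replicate 3 the count of genes called higher was 2, and without scramble replicate 2 or siDYRK2 replicate 3 it was 3. The count called lower was 1 without scramble replicate 2.

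Of 13 genes for cohesion, for cyclins and for other regulators of anaphase, 9 rose, 1 fell and 3 did not pass, with a median log2 fold change of 0.31. Among all genes tested, 20.4% were called higher and 17.9% lower. CDCA5 (sororin), which protects cohesion, rose to 17.0 ± 1.08 FPKM in siDYRK2 cells, against 11.9 ± 0.0361 FPKM in scramble cells (SD, n = 3 each; adjusted p = 3.0e-04). CCNA2 (cyclin A2) rose by 0.51 and the cohesin subunit SMC1A by 0.32 (adjusted p = 3.2e-04 and 7.7e-04), and STAG1, a cohesin subunit, fell by 0.36 on the log2 scale (adjusted p = 0.0044). CCNB1 (log2 fold change 0.079, adjusted p = 0.603), PTTG1 (0.15, adjusted p = 0.205) and STAG2 (0.15, adjusted p = 0.099) did not pass. Of 11 phosphatase genes that silence the checkpoint 2 rose, 1 fell and 8 did not pass, with a median of 0.011. Neither share exceeded that of all genes tested (20.4% higher and 17.9% lower). PPP2R5A, a regulatory subunit of PP2A, fell to 15.4 ± 1.51 FPKM in siDYRK2 cells, against 25.5 ± 0.851 FPKM in scramble cells (SD, n = 3 each; adjusted p = 3.0e-04). PPP1CC, the catalytic PP1 gamma, rose by 0.38 (adjusted p = 4.5e-04) and PPP2CB by 0.10 (adjusted p = 0.046) on the log2 scale. The PPP2CB call was lost when any 1 library was left out, leaving 1 phosphatase gene called higher.

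Of 6 general cell cycle genes, 5 rose and 1 fell, and their median log2 fold change was 0.55. Among all genes tested, 20.4% were called higher and 17.9% lower. CDK1, the mitotic kinase, rose by 0.65 (adjusted p = 1.2e-04), MKI67, the proliferation marker, by 0.71 (adjusted p = 0.0012) and MCM2, a helicase subunit, by 0.34 on the log2 scale (adjusted p = 5.7e-04). CCNE1 (cyclin E1) fell by 0.59 (adjusted p = 0.0015). The log2 fold changes of TTK (0.86) and TRIP13 (0.71) stood beside those of CDK1, MKI67 and TOP2A (0.72). Those of BUB1, BUB1B, CDC20 and BUB3 (0.20 to 0.36) lay below these and below PCNA (0.46). BUB1B (0.36) lay just above MCM2 (0.34), and BUB1, CDC20 and BUB3 lay below it. These differences between genes were not tested.

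**Figure D5:**
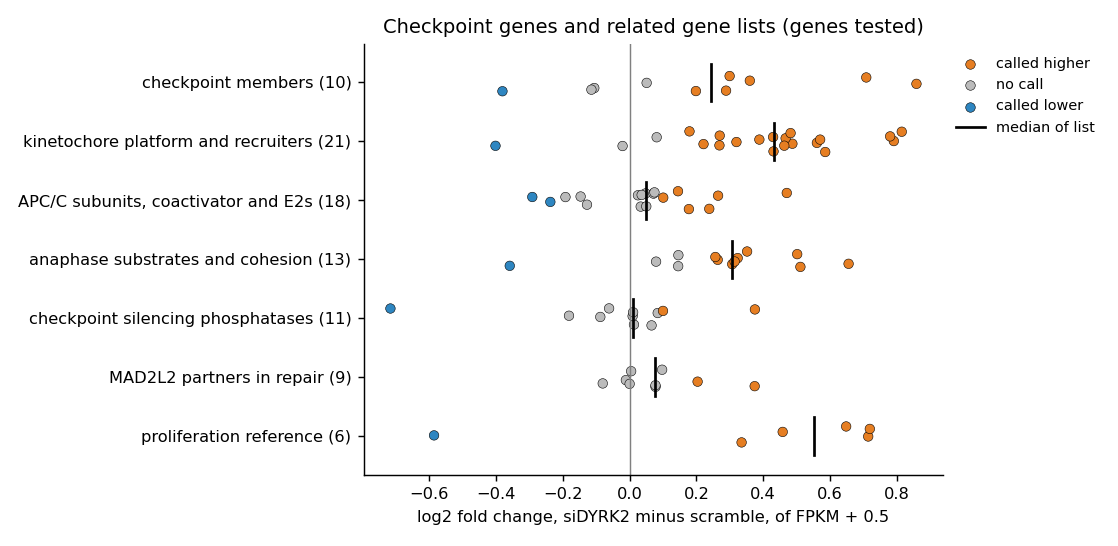
Log2 fold change (x axis, siDYRK2 minus scramble, FPKM + 0.5) of each tested gene of the checkpoint and of 6 related lists (rows, number of genes in brackets), coloured by call, with the median of each list as a bar. MAD2L1 is the blue point of the top row at −0.38; the list of kinetochore genes has a median of 0.43 and the APC/C list 0.049.

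Of the 6 other listed genes that were called lower (PMF1, ANAPC2, ANAPC16, STAG1, PPP2R5A and CCNE1), 0 have ATCTATA in the 3′ untranslated region. Of the 42 called higher 2 have it, and of the 30 without a call 1 (PPP1CB) does, against 10.1% of all genes searched. CDC27, an APC/C subunit, rose with 2 copies (log2 fold change 0.15, adjusted p = 0.035). The CDC27 call was lost without a filter on low values and without scramble replicate 3.

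By the distance between centred log2 profiles over the 6 libraries, the 3 of 10652 genes nearest to MAD2L1 were TMEM97, STAG3L5P-PVRIG2P-PILRB and ARHGAP27P1-BPTFP1-KPNA2P3, at root mean square distances of 0.030, 0.031 and 0.032. The last 2 are readthrough transcripts over pseudogenes, whose reads may be shared with other genes. TMEM97, the sigma-2 receptor of the endoplasmic reticulum, had 16.8, 15.9 and 17.3 FPKM with siDYRK2, against 21.9, 22.0 and 19.8 FPKM with scramble siRNA. The 3 genes nearest to BUB1 were MALL, the spindle protein gene PSRC1 and BUB1B, at distances of 0.043, 0.046 and 0.048. CDC20 ranked 35 and TTK 8059 by distance from BUB1. Profiles were not scaled, so the distance grows with the size of a change, and TTK rose more than BUB1 (0.86 against 0.30 on the log2 scale). Within each group the libraries of TTK and BUB1 stood in the same order.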

How the data were processed

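The deposited table holds FPKM of 33392 genes, with a column for each of the 6 libraries, per the file headers. HISAT2 and StringTie, with the build GRCh38, were used per the submitters' processing notes. The annotation, the strand setting and any read filter were not given in the sources used here. Library names in the labels matched the columns, 0 other columns held per-sample values, and 0 pairs of columns were identical.

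The 15121 genes averaging 0.5 FPKM or more entered limma 3.58.1 (R 4.3.3) as log2(FPKM + 0.5), with a mean-variance trend, no covariate and Benjamini-Hochberg adjustment over all genes tested, at 0.05. The log2 scale with a pseudocount understates changes of low genes. Every adjusted p is from limma, in this fit or in the alternative named beside it. The fit was checked on simulated data with independent values, which cannot show whether the spread between these replicates is technical. The MAD2L1 to MAD1L1 ratio was compared by an exact permutation test in Python 3.11.15 with scipy 1.17.1. Low FPKM values multiplied by transcript length were within 0.1 of a whole number in 27.3% to 30.8% of cases at the best step. That step was picked from many, whereas the chance share of 20% is for a fixed step, so these shares cannot be compared. Reads were not recovered, the depth is unknown and no count model was used.

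The members and gene lists were chosen with earlier results of these data known. Named genes are all members, DYRK2, up to 3 genes per list with the smallest adjusted p, list genes called against the main direction of their list, and the 3 nearest profiles (mean of at least 2 FPKM) of MAD2L1 and BUB1; others were chosen after their values were seen. Transcripts are from GENCODE v29 on GRCh38, 1 principal protein-coding transcript per gene with the longest 3′ untranslated region, of at least 50 bases. BUB1B-PAK6, which overlaps BUB1B, was at most 0.24 FPKM and the pseudogene CDC20P1 at most 0.29 FPKM. Alternatives changed the pseudocount (0.1 or 1), the filter (none or 1 FPKM), the trend, the scaling, the replicate block and the libraries.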

Additional observations from a re-analysis of the deposited data

How the results depend on the processing

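The calls of MAD2L1, TTK, TRIP13 and BUB3 held in all 15 alternatives run, and no log2 fold change of the 10 genes changed sign. The count of checkpoint genes called higher was 6, and 3 without a filter on low values, 3 with the replicate block and 3 to 6 with 1 library left out. The call of BUB1 was lost without a filter on low values (log2 fold change 0.30, adjusted p = 0.12), without the trend (0.30, adjusted p = 0.070), centred on the median gene (0.30, adjusted p = 0.054), under quantile normalization (0.30, adjusted p = 0.055) and with the replicate block (0.30, adjusted p = 0.10). Its log2 fold change ran from 0.21 to 0.39 with 1 library left out. The call of BUB1B was lost without a filter (0.36, adjusted p = 0.077) and with the replicate block (0.36, adjusted p = 0.063), and its value ran from 0.27 to 0.47 with 1 library left out. The call of CDC20 was lost without a filter (0.29, adjusted p = 0.093), without the trend (0.29, adjusted p = 0.059) and with the replicate block (0.29, adjusted p = 0.056), and its value ran from 0.22 to 0.37 with 1 library left out. Without a filter 32812 genes were tested in place of 15121, and fits without a library or with the block have fewer residual degrees of freedom. The cause of none of these losses was tested.

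Replicate numbers are shared between groups, but same-numbered libraries did not deviate together (correlations across 15121 genes, which are not independent, of −0.077, 0.024 and −0.088), so the numbers were not taken as pairs. With the replicate block 2495 genes were called higher and 2321 lower, against 3079 and 2714 without it. Of the counts of called genes in the related lists, 153 stayed within 1.5 times under an alternative and 27 did not, all of these in the lists of APC/C genes, phosphatases and MAD2L2 partners. Depth is unknown, so no counting error could be given for genes of few FPKM such as TTK, MAD1L1 and MAD2L1.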
